A study of Mus musculus with 18 samples.

Results

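Integrins are the receptors with which leukocytes hold on to other cells and to the extracellular matrix, and they were followed here in microglia and macrophages sorted from the contused spinal cord of mice. The set holds 32 genes, chosen by symbol: 18 integrin alpha chains, 8 integrin beta chains, the cytoplasmic adaptors Fermt3 and Tln1, and the partner molecules Icam1, Icam2, Vcam1 and Selplg. They were found on 33 of the 53465 rows of the count table, since the symbol Itgam stands on 2 rows. All mice were adult female C57BL/6J animals of 8 to 10 weeks, and all had a spinal cord contusion. At 48 h after the injury they received 1 intraspinal injection of PBS, of 100 ng recombinant IL-13 or of 100 ng recombinant IL-4, and cells were sorted 24 h later. Microglia and macrophages came from the same animals, with 3 mice per treatment and 9 in all, which gave 6 groups and 18 RNA-seq libraries. In what follows, the values of a group are given in the order of its mice: PBS mice 1, 2 and 3, IL-13 mice 5, 6 and 7, and IL-4 mice 8, 9 and 10.

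An integrin is a dimer of an alpha and a beta chain, and the pair decides what it binds. The beta chain Itgb2 pairs with Itgal (LFA-1), Itgam (CD11b, the complement receptor CR3), Itgax (CD11c) or Itgad, and these leukocyte integrins bind intercellular adhesion molecules such as Icam1 and Icam2. Itga4 pairs with Itgb1 or Itgb7 and binds Vcam1, while Itga5 with Itgb1 is the fibronectin receptor and Itgav with Itgb3, Itgb5, Itgb6 or Itgb8 binds vitronectin and other RGD ligands. Talin-1 (Tln1) and kindlin-3 (Fermt3) bind the tails of beta chains inside the cell and switch the receptor to its active form. Selplg (PSGL-1) is the selectin ligand on which leukocytes roll before integrins arrest them.

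Each library held between 35961305 and 45849829 counts. IL-4 macrophages held 42320537 to 45849829 and PBS macrophages 36445342 to 38426762, ranges that do not overlap. The genes with a count numbered 17620 to 18371 in PBS microglia, 16132 to 16832 with IL-13 and 15193 to 15626 with IL-4. In macrophages they numbered 17553 to 18174, 16867 to 17591 and 17452 to 17529. The part of these differences in the counts of low genes was not tested. The sort itself used the protein of 1 of the genes: both cell types were gated on CD11b and F4/80, with CD45 low for microglia and high for macrophages. RNA of marker genes of other cell types was detected in the sorted cells. The summed normalized count of 10 endothelial markers was 47718.5 to 162644 in the 9 microglia libraries and 2092 to 16540.5 in the 9 macrophage libraries, and that of 11 fibroblast and pericyte markers was 9521.5 to 334198 against 133 to 598. The 8 microglia markers summed to a median of 350411 in PBS microglia, 188351 with IL-13 and 109029 with IL-4, and to 146739.5, 52464 and 26129 in macrophages. The 12 neutrophil markers were highest in the macrophages of IL-13 mouse 6, at 146306, where the other 8 macrophage libraries lay between 12143 and 74301. Levels are given as normalized counts, which are counts divided by the size factor of the library, on 1 scale for all 18 libraries. A lower level in such bulk samples cannot be told apart from fewer expressing cells.

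Measured per kilobase of exon, the beta2 chain Itgb2 was the most abundant of the 32 genes in both PBS groups (the plot of levels per kilobase). In PBS macrophages Itgb2 stood at 16647 ± 480.0 normalized counts per kb (SD, n = 3), followed by Itgam at 7213, Itgb1 at 3339, Selplg at 3206, Itgb7 at 2816, Fermt3 at 2087, Tln1 at 1887, Itga5 at 1733 and Itgb5 at 1317. Neighbours from Itgb1 to Itgb7, and from Fermt3 to Itga5, overlapped between libraries. In PBS microglia the order was Itgb2 at 6075 ± 371 (SD, n = 3), Selplg at 5512, Itgam at 4599, Itgb1 at 4538, Fermt3 at 1700.3, Itgb5 at 1519.6 and Tln1 at 1493. There the libraries of Selplg and Itgam overlapped with each other and with those of Itgb2 and Itgb1, so their place in the order is not fixed by these data. Itgb2 was above Itgb1 in every library. With the longest transcript as the length, Selplg came first in PBS microglia, at 10177 against 6242 for Itgb2, and Fermt3 was at 3291, while Itgb2 stayed first in PBS macrophages. At the other end, Itgad, Itgb6, Itga2 and Itga10 had mean levels under 5 per kb in all 6 groups. Itgb6, the epithelial partner of Itgav, had counts in 1 library of 18, with 15 counts in the microglia of PBS mouse 2.

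**Figure D1:**
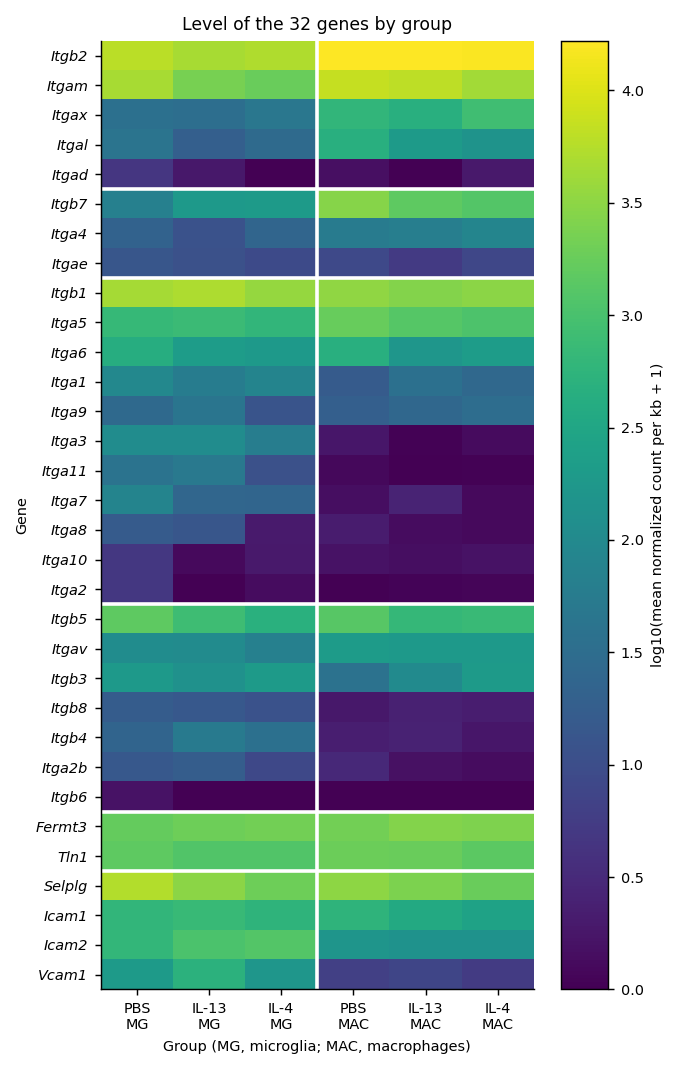
Heat map of the mean level of each of the 32 genes in each of the 6 groups, as log10 of the normalized count per kb of exon plus 1, with 3 libraries per group and white lines between gene families. Itgb2 is brightest in macrophages, Itgb7, Itgax and Itgal are brighter in macrophages than in microglia, and Vcam1, Icam2, Itga3 and Itga7 are brighter in microglia.

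With PBS, 19 of the 28 genes that passed the filter on low counts differed between microglia and macrophages, against 40.9% of all genes tested. Of these, 11 were higher in microglia (24.5% of all genes were) and 8 were lower (16.3%). Of the 11, 6 had at most 17 counts in any PBS macrophage library and so passed the filter through the microglia alone. With at least 10 counts in every library, 6 were higher and 7 lower of 20 tested, where 2271 were higher and 1966 lower of all 11535 genes tested. The genes lower in microglia were the leukocyte integrins Itgb2, Itgam, Itgax and Itgal, together with Itgb7, Itga5, Itgav and Fermt3. The genes higher in microglia were Selplg, Icam2 and Vcam1, the vitronectin receptor chain Itgb3, and the matrix receptor chains Itga1, Itga3, Itga7, Itga8, Itga11, Itgb4 and Itgb8. The 3 cell type comparisons are between libraries of the same mice.

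**Figure D2:**
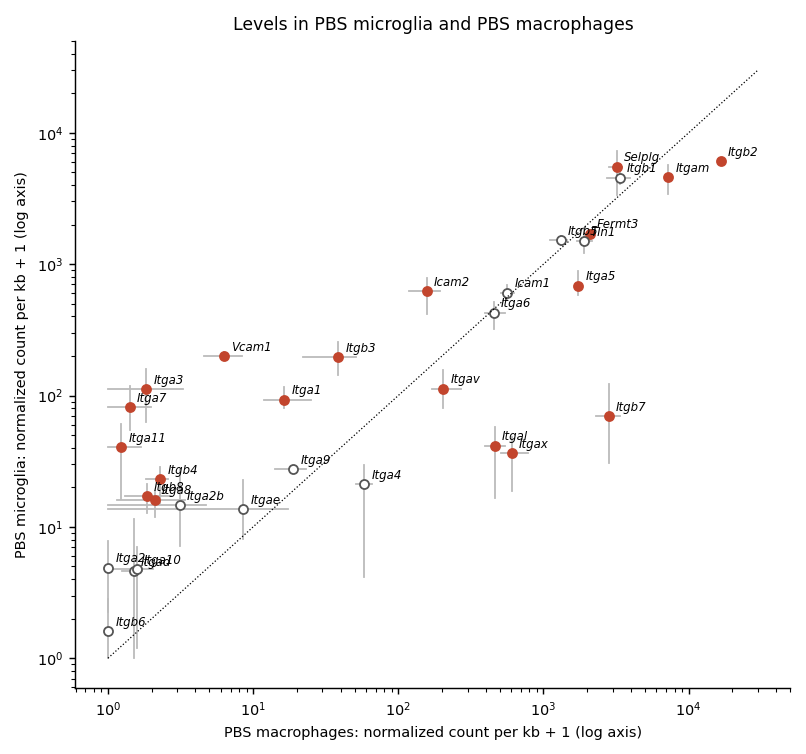
Level of each of the 32 genes in PBS macrophages (x axis) and PBS microglia (y axis), as normalized count per kb plus 1 on log axes; points are means of 3 mice, grey lines span the lowest to the highest library, filled points differed between cell types at an adjusted p under 0.05 and the dotted line marks equal levels. Itgb7, Itgax and Itgal lie far below the line, while Vcam1, Itga3, Itga7 and Itga11 lie far above it.

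Among the leukocyte integrins, Itgb2 had 18910.2, 17268 and 19441 normalized counts in PBS microglia and 49182, 52026 and 51212 in PBS macrophages, with no overlap. The log2 fold change of microglia against macrophages was -1.51 ± 0.11 (SE, adjusted p = 1.75e-05). Itgax was further apart, at 199, 85.3 and 227 against 3758, 2426 and 2537 (log2 fold change -4.15 ± 0.38, adjusted p = 6.6e-05). CD11c, its protein, is known from dendritic cells and activated macrophages. Itgal had 103, 372 and 323 in PBS microglia and 3536, 2933 and 2612 in PBS macrophages (-3.57 ± 0.43, adjusted p = 0.000254). Itgam differed least, at 23400.0, 17118 and 28796 against 34454, 36585 and 37674 (-0.71 ± 0.18, adjusted p = 0.0142). Its call was lost without mouse 1 (adjusted p = 0.065), and the sort on CD11b makes it no independent readout of the cell types. Itgad had at most 52 counts in any of the 18 libraries and did not pass the filter in these comparisons.

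Itgb7, the partner of Itga4 on gut-homing lymphocytes, was the gene with the largest fold among the 8 that were lower in microglia. It had 153, 333 and 82.3 normalized counts in PBS microglia and 6385, 9292 and 7725 in PBS macrophages, a log2 fold change of -5.42 ± 0.48 (adjusted p = 5.22e-05). The markers of T and NK cells, 10 genes, summed to no more than 56.7 normalized counts in any macrophage library. In PBS macrophages 3 of them were at 0 in every library. There the 5 B cell markers summed to 139.9 to 171.6 and the 7 dendritic cell markers, with Siglech also on the microglia list, to 934.9 to 2044.9. The part of such cells in the level of Itgb7 was not tested. Itga4 pointed the same way, at 402, 44.4 and 401 against 908, 697 and 789, but did not pass (-1.55 ± 0.64, adjusted p = 0.0852). With the mouse as a block it did (adjusted p = 0.0279). The fibronectin receptor chain Itga5 was lower in microglia, at 2873, 4380.5 and 2876 against 8635, 8728 and 8288 (-1.40 ± 0.17, adjusted p = 0.000299), while its partner Itgb1 was at 17569, 21223 and 16773 against 11223, 13654 and 16001, which did not pass the test.

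Itgav was lower in PBS microglia, at 1067, 845 and 1674 against 2913, 1812 and 1838 (-0.93 ± 0.29, adjusted p = 0.0322), a call lost without mouse 1 or mouse 2 (adjusted p up to 0.212). Its beta chains did not share that direction. Itgb3 was higher in microglia, at 1501, 845 and 1098 against 295, 125 and 244 (2.32 ± 0.35, adjusted p = 0.000925). Itgb5 was at 5395, 4969 and 5834 against 4967, 3931 and 5140.1, ranges that overlap. Of the adaptors, Fermt3 was slightly lower in microglia, at 10209.9, 8709 and 10584 against 11979, 12171 and 12056 (-0.35 ± 0.12, adjusted p = 0.0386), but leaving out any of the 3 mice ended the call (adjusted p 0.081 to 0.145). Tln1, at 13358, 12007 and 18533 against 21137, 16561 and 17793, did not pass.

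Of the 4 partner molecules, Vcam1, Icam2 and Selplg were higher in PBS microglia and Icam1 was not called. Vcam1, the ligand of Itga4 integrins, had 1890.1, 1696 and 1684 normalized counts in PBS microglia and 65.5, 31.8 and 42.6 in PBS macrophages, a log2 fold change of 5.17 ± 0.28 (adjusted p = 6.01e-06). Icam2 was at 1480.4, 1290.1 and 791 against 224, 369 and 296 (1.94 ± 0.28, adjusted p = 0.000749). Selplg was at 30912, 14342 and 25394 against 14129, 12156 and 14798 (0.72 ± 0.25, adjusted p = 0.0473), with overlapping ranges and a call that did not survive leaving out mouse 1 or mouse 3 (adjusted p up to 0.256). Icam1 was at 3035, 2375 and 2486 against 2740.5, 2400.3 and 2211 and did not differ by the test. Vcam1 and Icam2 are also known from endothelium, whose 10 markers summed to 47718.5 to 101366 in PBS microglia and 2092 to 2677 in PBS macrophages, and the part of that RNA in these differences was not tested.

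The remaining genes higher in microglia are 7 chains of receptors for matrix and latent TGF-beta, and 6 of them, Itga1 excepted, had at most 17 counts in any PBS macrophage library. Itga3, a laminin receptor chain, had 924, 734 and 384 counts in PBS microglia and 0, 1 and 12 in PBS macrophages. Itga7, another laminin receptor chain, had 592, 1083 and 471 against 7, 0 and 2. Itga11, a collagen receptor chain of mesenchymal cells, had 81, 252 and 334 against 0, 3 and 0. All 3 differed at adjusted p of 0.000799 or less. They passed the filter on low counts through the microglia alone and were not tested with at least 10 counts in every library. Itgb4, the epithelial laminin receptor chain, had 103, 197 and 211 counts against 10, 5 and 9. Itgb8, which with Itgav activates latent TGF-beta, had 134, 258 and 195 against 17, 3 and 5. Itga8 had 82, 150 and 136 against 5, 15 and 1, which passed with all mice (adjusted p = 0.00869) but not without mouse 1 (adjusted p = 0.0519). It too was not tested with at least 10 counts in every library. Itga1, a collagen and laminin receptor chain, was the most abundant of them, at 2148, 1489 and 1473 normalized counts against 208, 443 and 203 (log2 fold change 2.52 ± 0.34, adjusted p = 0.000457). The 11 fibroblast and pericyte markers summed to 111186 to 160029 in PBS microglia and 505.5 to 598.5 in PBS macrophages, and the part of such cells in these 7 differences was not tested.

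With IL-13, 14 of 27 tested genes differed between the cell types (26.7% of all genes did). In microglia 7 were higher (17.2% of all genes) and 7 lower (9.46%). With at least 10 counts in every library, which removes Itga3, Itga11 and Itgb4, 4 were higher and 6 lower of 19 tested. Of all 10996 genes in that fit, 1540 were higher and 1059 lower. With IL-4, 13 of 24 differed (23.4% of all genes), 6 higher (13.4%) and 7 lower (9.97%). With at least 10 counts in every library 3 were higher and 7 lower of 18 (1334 and 1063 of all 10661 genes). Itgb2, Itgam, Itgax, Itgb7 and Itga5 were lower in microglia, and Vcam1, Icam2, Itga3 and Itgb4 higher, under all 3 treatments. Itga3 and Itgb4 had at most 18 counts in any macrophage library and were not tested with at least 10 counts in every library. Nor was Vcam1 with IL-4. With the cytokines some of these calls rested on single mice. Without IL-13 mouse 7 those of Itgam, Itga5 and Itgb4 were lost (adjusted p = 0.0711, 0.182 and 0.0619). With IL-4 those of Itga5 and Itgb4 were lost without mouse 8 or mouse 9 (up to 0.0834 and 0.125), and that of Itgb7 without mouse 9 (0.0865). Itgb2 was at 16911, 10351 and 14743 normalized counts in IL-13 microglia against 43961, 55031 and 50560.0 in IL-13 macrophages, and at 15683, 14546 and 18306 against 46256, 57499 and 42660.5 with IL-4. Its log2 fold change was -1.86 ± 0.23 with IL-13 and -1.63 ± 0.18 with IL-4 (adjusted p = 0.0014 and 0.000719). Itga4 was lower in microglia with IL-13 (216, 39.3 and 190.0 against 1069, 487 and 1051, adjusted p = 0.0236) and with IL-4 (232, 324 and 392 against 1959, 573 and 949, adjusted p = 0.0211). With the mouse as a block the IL-4 value missed the threshold (adjusted p = 0.0568), as did that of Itgb4 with IL-4 (adjusted p = 0.0545). Icam1 was higher in microglia with each cytokine, by a log2 fold change of 0.90 ± 0.19 with IL-13 (adjusted p = 0.0124) and 0.98 ± 0.18 with IL-4 (adjusted p = 0.00652). Without mouse 5 or 7 the Icam1 call with IL-13 was lost (adjusted p up to 0.151), and without mouse 10 that with IL-4 (0.0854). The Itga4 call was lost without mouse 5 or 7 with IL-13 (up to 0.158) and without mouse 8 or 10 with IL-4 (up to 0.133). With IL-13, Itgb1 was also called higher and Tln1 lower in microglia. The Itgb1 call was lost without mouse 6 or 7 (adjusted p up to 0.142) and that of Tln1 without any 1 mouse (0.0759 to 0.262). With IL-13, leaving out mouse 5, 6 or 7 gave 13 of 28, 14 of 27 and 7 of 26 members (2349, 3606 and 1197 calls over all genes). With IL-4, leaving out mouse 8, 9 or 10 gave 9 of 25, 10 of 23 and 10 of 25 (2144, 2548 and 1798).

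In macrophages IL-4 changed 7 of the 22 members tested, where 14.0% of all genes changed. Itgb3 rose (6.77% of all genes rose) and Icam1, Selplg, Itga5, Itgam, Itgb7 and Itgal fell (7.2% of all genes fell). Of the 4 alpha chains of Itgb2, Itgam and Itgal were called, Itgax was not and Itgad did not pass the filter on low counts. Itgb2 itself was not called, at 49182, 52026 and 51212 normalized counts with PBS and 46256, 57499 and 42660.5 with IL-4.

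The plus strand of chromosome 7 carries 4 of these genes close together in GRCm38: Itgal at chr7:127296260-127335138, Itgam at chr7:128062640-128118491, Itgax at chr7:128129547-128150657 and Itgad at chr7:128154376-128223816. Itgb7 and Itga5 are both on the minus strand of chromosome 15, at chr15:102215995-102231944 and chr15:103344286-103366763. Icam1 is at chr9:21015985-21028817 and Itgb3 at chr11:104608000-104670476, both on the plus strand. Promoter sequences of 300 bases, 250 before and 50 after the start of the RefSeq transcript (GRCm38.p6), were matched for 21 of the 32 genes. They were searched on both strands for 6 motifs. The hexamer GAGGAA, the core bound by the myeloid factor PU.1, stood in 10 of the 23 promoters of these 21 genes and in 28.3% of 32851 promoters of the same length. The palindrome TTCNNNGAA of the STAT factors, to which STAT6 downstream of IL-4 and IL-13 belongs, was found in 2 of the 23 (Icam1 and Itga10) and in 8.3% of all promoters. The same palindrome with 1 more base in its middle, the spacing that STAT6 is known to prefer, was found in 2 (Itga3 and Itgax) and in 6.95%. The AP-1 motif TGANTCA was in 3 of the 23 (7.81% of all), the Sp1 motif GGGCGG in 10 (35.7%) and the NF-kB motif GGGNNNTCC in 6 (17.8%).

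The promoters of the 4 matched genes that fell with IL-4 in macrophages and hold a PU.1 or a STAT motif are shown, 5′ to 3′ on the strand of the gene. Capitals mark the PU.1 hexamer on either strand in the first 3 (3 matches in Itgam, 1 each in Itgb7 and Itga5) and the STAT palindrome in Icam1. The windows are chr7:128062390-128062689 for Itgam, chr15:102231886-102232185 for Itgb7, chr15:103366742-103367041 for Itga5 and chr9:21015690-21015989 for Icam1. A match describes these letters only and is no measured site.
Itgam: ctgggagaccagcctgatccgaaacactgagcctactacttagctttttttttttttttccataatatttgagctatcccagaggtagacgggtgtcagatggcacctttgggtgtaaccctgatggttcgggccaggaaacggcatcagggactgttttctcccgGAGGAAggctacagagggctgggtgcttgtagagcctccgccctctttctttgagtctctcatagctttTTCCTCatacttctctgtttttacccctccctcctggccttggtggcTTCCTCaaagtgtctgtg
Itgb7: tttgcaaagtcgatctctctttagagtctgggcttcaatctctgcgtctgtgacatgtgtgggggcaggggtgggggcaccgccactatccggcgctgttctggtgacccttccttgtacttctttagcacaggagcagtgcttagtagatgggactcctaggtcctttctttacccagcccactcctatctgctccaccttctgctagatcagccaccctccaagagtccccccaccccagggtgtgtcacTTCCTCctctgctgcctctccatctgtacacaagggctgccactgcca
Itga5: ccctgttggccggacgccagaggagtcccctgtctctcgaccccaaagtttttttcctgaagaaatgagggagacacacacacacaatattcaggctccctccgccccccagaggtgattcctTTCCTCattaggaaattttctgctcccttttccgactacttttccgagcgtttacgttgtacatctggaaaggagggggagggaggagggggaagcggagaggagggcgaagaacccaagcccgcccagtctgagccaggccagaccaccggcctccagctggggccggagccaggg
Icam1: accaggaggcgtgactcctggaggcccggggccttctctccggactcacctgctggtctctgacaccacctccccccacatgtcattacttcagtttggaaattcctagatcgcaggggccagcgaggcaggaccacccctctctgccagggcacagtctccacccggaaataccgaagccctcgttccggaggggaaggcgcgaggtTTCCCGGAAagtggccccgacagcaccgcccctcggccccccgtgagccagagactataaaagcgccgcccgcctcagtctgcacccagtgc

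Itgb3, the beta chain of the vitronectin receptor, was the only member called higher in macrophages by edgeR with TMM scaling, while DESeq2 and edgeR with DESeq2 size factors also called Itga9 with IL-4. It had 295, 125 and 244 normalized counts with PBS, 533, 672 and 624 with IL-13 and 789, 1556 and 1137 with IL-4, and neither cytokine group overlapped with PBS. The log2 fold change with IL-4 was 2.45 ± 0.33 (SE, adjusted p = 0.00107), and the gene was called without each of the 6 mice in turn. Its alpha partner Itgav did not pass the test, at 2913, 1812 and 1838 with PBS and 2796, 1091 and 2142 with IL-4, where mouse 9 lay below all PBS libraries. Itga2b, its other partner on platelets, had at most 18 counts in any macrophage library, and the 7 platelet markers summed to 14268 to 32455 with PBS and 4859 to 13061 with IL-4, with Gp5 and Gp6 at 0.

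Icam1, the endothelial and leukocyte ligand of the beta2 integrins, fell from 2740.5, 2400.3 and 2211 normalized counts with PBS to 1306, 1065 and 1175 with IL-4. The groups did not overlap, the level with IL-4 was 0.50 times that with PBS (SE 0.15 on the log2 scale, adjusted p = 0.0017), and the call held without each of the 6 mice. Selplg fell from 14129, 12156 and 14798 to 7546, 7785 and 8051 (-0.76 ± 0.14, adjusted p = 0.00621) and also held without each mouse. These and Itgb3 were the firmest of the 7 calls.

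The other 4 rested on fewer mice. Itgam fell from 34454, 36585 and 37674 to 19403, 21824 and 22913 (-0.71 ± 0.16, adjusted p = 0.0174), and Itga5 from 8635, 8728 and 8288 to 5082, 5845 and 5245 (-0.61 ± 0.14, adjusted p = 0.0156). Neither gene overlapped between the groups. Itgb7 fell from 6385, 9292 and 7725 to 2712, 4478 and 2969 (-1.15 ± 0.27, adjusted p = 0.0182). Itgal fell from 3536, 2933 and 2612 to 783, 1425 and 626 (-1.63 ± 0.41, adjusted p = 0.0252), with IL-4 mouse 9 highest in both Itgb7 and Itgal. Among the 6 fits that each left out 1 mouse, Itgam was called in 3 (adjusted p up to 0.0723), Itgb7 in 2 (up to 0.0763), Itga5 in 1 (up to 0.0646) and Itgal in 1 (up to 0.0963). With all 18 libraries in 1 model only Icam1 and Itgb3 passed. The cells were sorted on CD11b, the protein of Itgam. The paper reports that both cytokines brought a CD45 high, CD11b low population, larger with IL-4, that was barely seen with PBS. The part of such cells and of the sort in the fall of Itgam was not tested.

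The second row with the symbol Itgam holds the locus Gm49368, which overlaps the gene on the same strand at chr7:128062683-128128160. It took 0.9% of the counts of both rows, and 65.2% of the stretches of 76 bases in the transcripts of Itgam are shared with other loci, so the split between the rows is uncertain. In macrophages it had 455, 408 and 393 normalized counts with PBS and 118, 242 and 164 with IL-4 (-1.21 ± 0.32, adjusted p = 0.0292), and it is not counted among the 7. The call was kept in 1 of the 6 fits without 1 mouse (adjusted p up to 0.0998) and was lost with all 18 libraries in 1 model (0.487).

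Markers of several cell types also differed between PBS and IL-4 macrophages. The 8 microglia markers summed to 100944 to 148853 with PBS and to 17537 to 32948 with IL-4, and all 8 fell by edgeR. The 12 neutrophil markers summed to 45365 to 74301 and 12143 to 41546, and 3 of them fell. Itgam, Itgal and Selplg are known from neutrophils too. The sort took F4/80+ cells, and the study gated granulocytes as F4/80-. The 11 fibroblast and pericyte markers summed to 505.5 to 598.5 and 133 to 161.5, and 5 of the 8 tested fell. In the endothelial, astrocyte and monocyte and macrophage lists the sums were higher with IL-4 while the medians over genes were below 0. The 10 endothelial markers summed to 2092 to 2677 with PBS and 9254 to 16540.5 with IL-4, but 2 rose and 4 fell, with a median log2 fold change of -1.77. The 6 astrocyte markers summed to 439.8 to 596 and 2120.2 to 18678, but of the 5 tested 1 rose and 1 fell (median -0.20). The 9 monocyte and macrophage markers summed to 968194.5 to 1041451.5 and 4081411 to 4692199, but 2 rose and 1 fell (median -0.46). The part of these cells in the 7 changes was not tested.

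IL-13 changed 1 member in macrophages, Itgb3, by 2.82-fold (SE 0.32 on the log2 scale, adjusted p = 0.029), where 4.19% of all genes changed and 2.53% rose. The call was lost without PBS mouse 2 or 3 and without each of the 3 IL-13 mice (adjusted p up to 0.0988). Icam1, at 1499, 1858 and 1482 normalized counts with IL-13, lay under all PBS libraries but just missed the threshold (-0.57 ± 0.14, adjusted p = 0.0551), and passed without IL-13 mouse 6 (adjusted p = 0.0403). Itgb7 was at 3228, 5893 and 3415 (-0.88 ± 0.27, adjusted p = 0.109) and Itgal at 707, 2228 and 999 (-1.18 ± 0.41, adjusted p = 0.152). In both genes the highest library was IL-13 mouse 6, and without that mouse both passed (adjusted p = 0.0227 and 0.0164). Several marker sums were highest in that library within its group, among them those of neutrophils, platelets, astrocytes and erythroid cells. The part of such RNA in these values was not tested. Itgam, at 27490.4, 40368 and 28925, was highest in the same mouse and showed no change by the test. Itgb5, a further vitronectin receptor chain, was at 4967, 3931 and 5140.1 with PBS, at 2715, 1677 and 2524 with IL-13 and at 3674, 1514 and 2664 with IL-4, below every PBS library with either cytokine, but did not pass (adjusted p = 0.1 and 0.104).

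**Figure D3:**
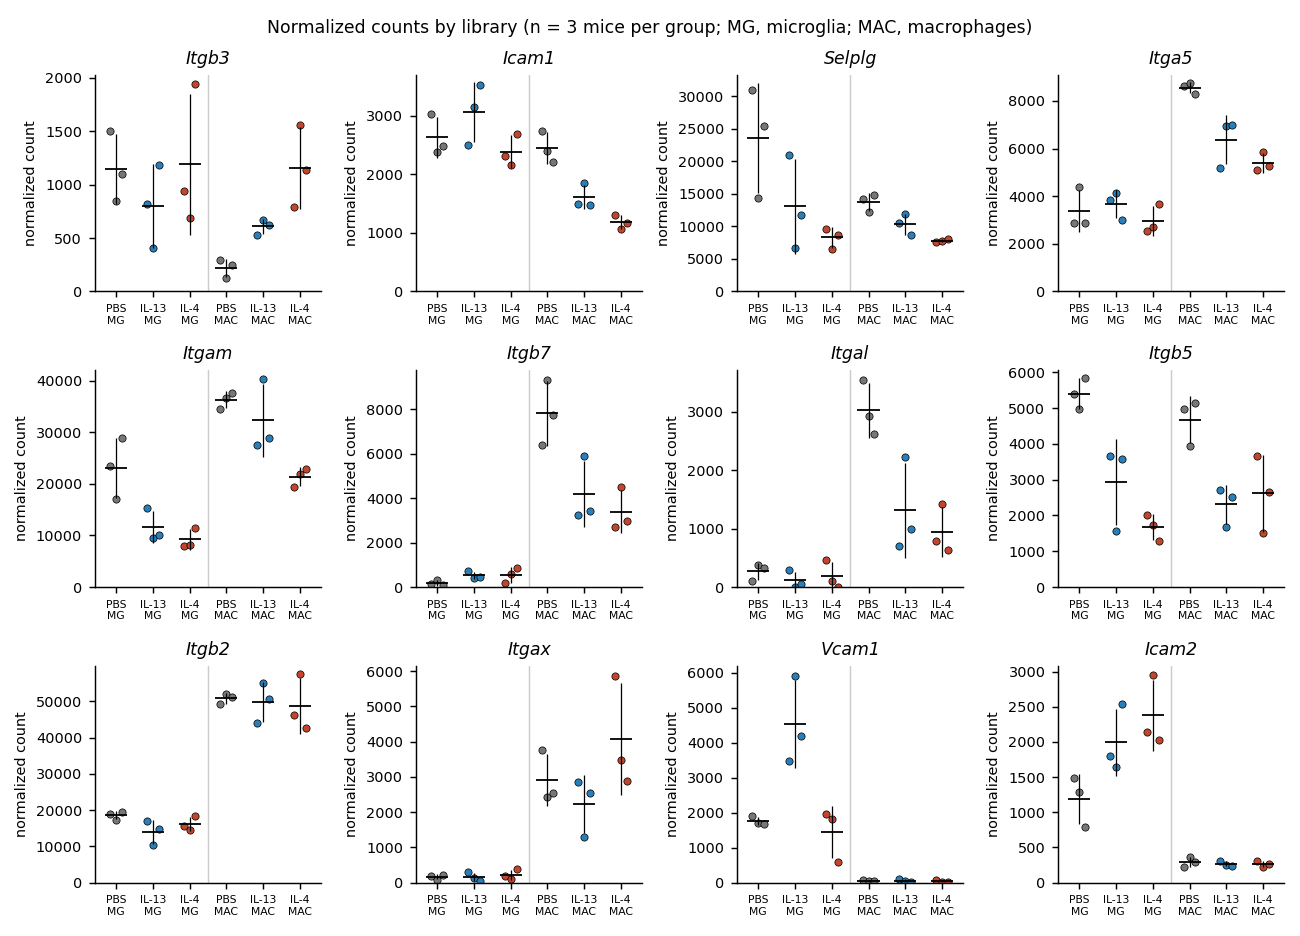
Normalized counts (y axis, linear, from 0) of 12 genes in the 18 libraries, with 1 point per mouse, the mean as a horizontal line and the SD (n = 3) as a vertical line, for microglia (MG) and macrophages (MAC). In macrophages Itgb3 is lowest with PBS (125 to 295), while Icam1, Selplg, Itga5, Itgam, Itgb7 and Itgal are lower in every IL-4 library than in any PBS library.

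In microglia IL-4 changed 2 of the 28 members tested, both downward, where 2.22% of all genes changed and 0.887% fell. Fewer genes had a count in every IL-4 microglia library than in any PBS one, as given above, and the part of this was not tested. Itgam fell from 23400.0, 17118 and 28796 normalized counts to 7976, 8200.1 and 11487 (log2 fold change -1.29 ± 0.27, adjusted p = 0.0411). Itgb5 fell from 5395, 4969 and 5834 to 2022, 1729.7 and 1280.4 (-1.65 ± 0.33, adjusted p = 0.0339). Neither gene overlapped between the groups, yet neither passed once any 1 of the 6 mice was left out (adjusted p 0.0527 to 0.171). Selplg, at 9648, 6521 and 8707 with IL-4, was below all PBS microglia and missed the threshold (-1.47 ± 0.42, adjusted p = 0.125). Icam2, at 2147, 2948 and 2032, was above all PBS microglia and missed it too (1.04 ± 0.28, adjusted p = 0.105). Both passed with DESeq2 and with all 18 libraries in 1 model. The 8 microglia markers, which share no gene with the set, were lower with IL-4 (95362 to 161852 against 220248 to 389519 with PBS). The fibroblast and pericyte markers were lower as well (9521.5 to 63945 against 111186 to 160029), and the sum of the monocyte and macrophage markers higher (672819 to 1053982 against 124024 to 164799.5), with 2 of its 9 genes called. The endothelial markers, beside which the Icam2 values stand, summed to 105564 to 138539 with IL-4 and 47718.5 to 101366 with PBS, with a median log2 fold change of 0.585 over the 10. Cells were sorted on CD11b, the protein of Itgam. The part of the sort and of cell composition in the values of Itgam, Itgb5 and Icam2 was not tested.

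IL-13 changed no member in microglia by edgeR with the 9 microglia libraries, where 0.366% of all genes changed. At an unadjusted p under 0.05 there were 5 of 28 (7.76% of all genes). DESeq2 called Itgam and Vcam1 of 30 tested (2.54% of all genes), and edgeR with all 18 libraries in 1 model called Itgam. Itgam was at 15209.5, 9582 and 10028 normalized counts, below all PBS microglia (-0.98 ± 0.26, adjusted p = 0.299). Vcam1 was at 3472, 5909.9 and 4204, above all PBS microglia (1.37 ± 0.39, adjusted p = 0.333) and above all IL-4 microglia, which had 1946, 1808 and 590.0. The 10 endothelial markers ran from 89087 to 162644 with IL-13 and from 47718.5 to 101366 with PBS, ranges that overlap, and the part of endothelial RNA in the Vcam1 values was not tested. Itgb2 was at 16911, 10351 and 14743 with IL-13 and at 15683, 14546 and 18306 with IL-4, and did not pass against PBS with either cytokine.

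**Figure D4:**
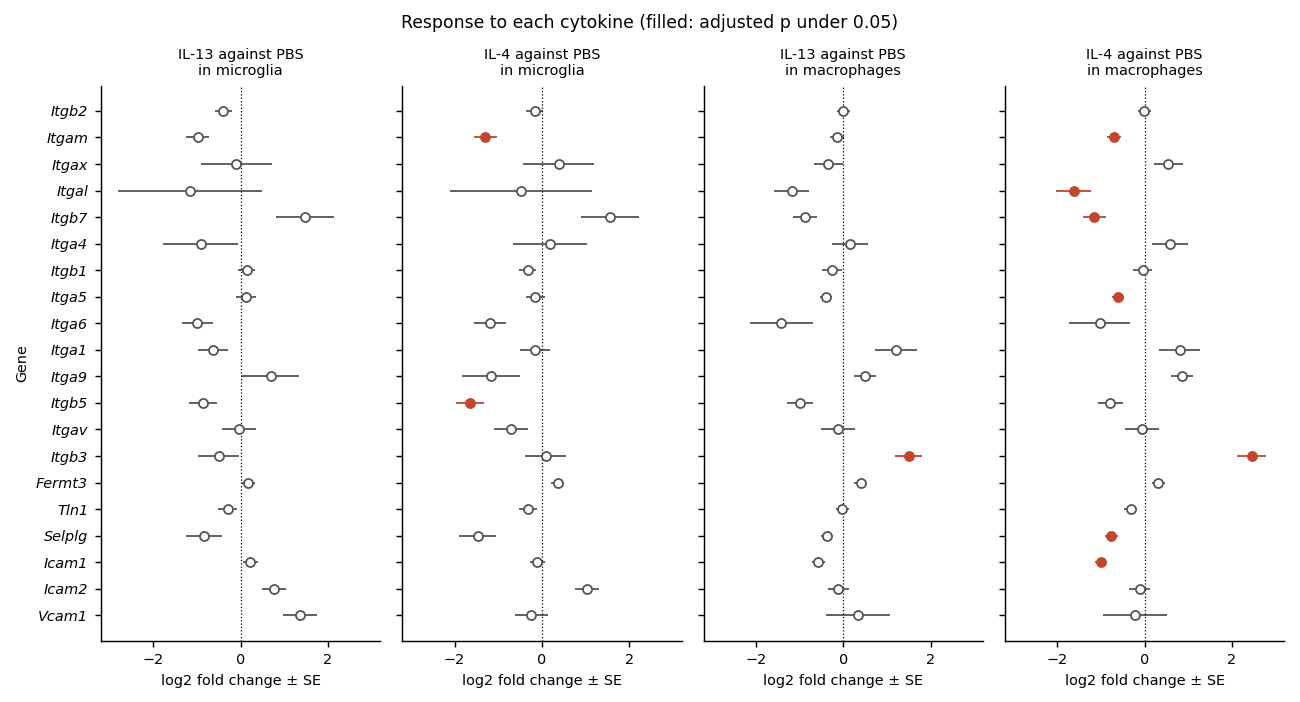
Log2 fold change (x axis, with SE as bars) of each cytokine against PBS in microglia and in macrophages for 20 genes. These passed the filter on low counts in all 4 comparisons, with Itgae and Itgb8 left out. Filled points passed an adjusted p of 0.05. In macrophages with IL-4, Itgb3 (2.45) stands far to the right and 6 genes to the left, whereas Itgb2 is open in all 4 panels, near 0 in macrophages and at -0.16 (IL-4) and -0.39 (IL-13) in microglia.

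The cytokines were also compared with each other. No member differed between IL-4 and IL-13 by edgeR, in microglia (0.0385% of all genes did) or in macrophages (0.25%). At an unadjusted p under 0.05 there were 4 of 28 members in microglia (11.4% of all genes) and 5 of 22 in macrophages (11.1%). DESeq2 called Vcam1 of 29 tested in microglia (4.79% of all genes) and none of 26 in macrophages (2.63%). The log2 fold change of Vcam1 was -1.61 ± 0.39 in microglia (adjusted p = 0.224). In macrophages, Itgax, at 5867, 3469.5 and 2879 with IL-4 and 2847, 1299 and 2555 with IL-13, was higher in every IL-4 library (0.88 ± 0.33, adjusted p = 0.352). Itgb3 (0.95 ± 0.31, adjusted p = 0.269) was higher and Itgam (-0.57 ± 0.16, adjusted p = 0.203) lower with IL-4 in every library, and neither passed.

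The difference between the cell types in their response was tested for 29 members and no call was made for IL-4 (0.992% of all genes) or IL-13 (0.0242%). At an unadjusted p under 0.05 there were 6 for each cytokine, where 12.4% and 5.83% of all genes passed for IL-4 and IL-13. DESeq2 called Icam1, Itgb3 and Itgb7 of 30 tested for IL-4 (4.68% of all genes), and Icam1 and Itga11 of 30 for IL-13 (1.1%). For IL-4, the response in microglia minus that in macrophages was 0.87 ± 0.23 on the log2 scale for Icam1 (adjusted p = 0.0942), -2.39 ± 0.62 for Itgb3 (0.087) and 2.69 ± 0.73 for Itgb7 (0.103). For IL-13, it was 0.80 ± 0.23, -2.00 ± 0.62 and 2.34 ± 0.73 in the same order (adjusted p = 0.456, 0.512 and 0.512). Icam1 in microglia was at 2507, 3153 and 3527 normalized counts with IL-13 and 2308, 2163 and 2696 with IL-4, which overlapped with PBS. Itgb3 in microglia was at 816, 402 and 1188 with IL-13 and 945, 688 and 1941 with IL-4, so that the IL-4 macrophages reached the range of the microglia. Itgb7 in microglia was at 722, 402 and 429 with IL-13 and 162, 606 and 861 with IL-4. All 3 IL-13 libraries and 2 of the 3 IL-4 libraries were above the highest PBS microglia library, and all stayed below every macrophage library.

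The alpha chains that pair with Itgb2 were set against each other per kilobase. Itgam made up 87.1% ± 2.83 (SD, n = 3) of their sum in PBS macrophages, 90.3% ± 2.30 with IL-13 and 81.1% ± 6.34 with IL-4. Itgax made up 9.57%, 6.13% and 6.27% in the PBS mice and 23.5%, 13.7% and 11.4% in the IL-4 mice, so every IL-4 library was above every PBS library. In microglia Itgam made up 93.8% to 99.0% of the sum in all 9 libraries. The level of Itgb2 divided by that sum was 1.97, 2.07 and 1.99 in PBS macrophages, 2.33, 2.09 and 2.57 with IL-13 and 2.91, 3.57 and 2.66 with IL-4. In microglia it was 1.31, 1.63 and 1.09 with PBS, 1.77, 1.75 and 2.40 with IL-13 and 3.04, 2.86 and 2.53 with IL-4. In each cell type every IL-4 library was above every PBS library. These ratios of RNA levels are a description and were not tested, and they say nothing on protein at the surface. The sum is mostly Itgam, whose protein CD11b was used in the sort, and the part of the sort in the ratios was not tested.

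**Figure D5:**
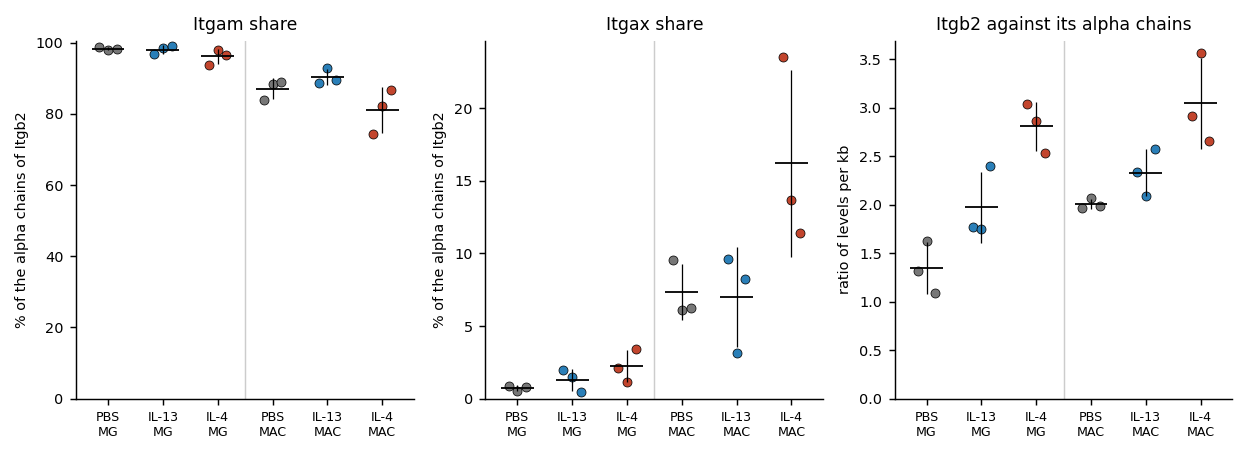
Share of Itgam and of Itgax among the alpha chains that pair with Itgb2 (in %, per kb), and the ratio of Itgb2 to the sum of these chains, with 1 point per mouse, means as horizontal and SD (n = 3) as vertical lines, for microglia (MG) and macrophages (MAC). The ratio is 1.09 to 2.07 in the PBS libraries and 2.53 to 3.57 in the IL-4 libraries.

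Of the adaptors, Fermt3 was at 11458, 10659 and 11072 normalized counts in IL-13 microglia, 10852, 14566 and 11600.2 in IL-4 microglia, 14087, 18405 and 14184 in IL-13 macrophages and 12925, 17036 and 13408 in IL-4 macrophages. Tln1 was at 14059.5, 10056 and 11484, then 10579.5, 10517 and 13213, then 17847, 17170.3 and 18497, and last 14855, 12177 and 15813 in the same groups. Neither passed in any of the 6 cytokine comparisons. Itgb1, the most widely paired beta chain, was at 15898, 22862 and 22293 in IL-13 microglia, 15879.7, 15968 and 11321 in IL-4 microglia, 10408, 11754 and 11571 in IL-13 macrophages and 12594, 17045 and 8542 in IL-4 macrophages, and did not pass against PBS in either cell type.

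Beside Itgb3, Itga5 and Itgb5, no matrix receptor chain was called against PBS by edgeR with TMM scaling. DESeq2 called Itga6 in microglia and Itga9 in macrophages, both with IL-4, edgeR with only the 6 libraries compared called Itga6 there too, and edgeR with DESeq2 size factors called Itga9. Itga6, a laminin receptor chain, ran from 3538 to 4919 normalized counts in PBS macrophages but was at 2557, 351 and 1575 with IL-13 and 3623, 478 and 1700.2 with IL-4. Its lowest libraries were IL-13 mouse 6 and IL-4 mouse 9, in which Itgav and Itgb5 were also lowest. In microglia it was at 2893 to 4651 with PBS, 888 to 2529 with IL-13 and 1549 to 1754 with IL-4. Itga9, which binds tenascin and Vcam1, was at 100.4 to 169 in PBS macrophages and 205 to 272 with IL-4 (0.84 ± 0.25, adjusted p = 0.0505). Itgb8 and Itga7 stayed low in macrophages with the cytokines, with at most 30 and 20 counts with IL-13 and 32 and 6 with IL-4, and Itga11 had 1 count in all 6 libraries together. Itga1 was more abundant than these chains in macrophages, at 233 to 980 counts with IL-13 and 333 to 616 with IL-4, which overlapped with 184 to 377 with PBS. In microglia the low chains scattered widely: Itga11 had 170, 663 and 56 counts with IL-13 and 0, 207 and 0 with IL-4, Itga8 had 0, 65 and 277 and then 22, 0 and 0, Itga7 had 1, 285 and 429 and then 236, 406 and 0, and Itgb8 had 39, 375 and 118 and then 140, 277 and 0. The 663 counts of Itga11 and the 375 of Itgb8 were in IL-13 mouse 6, the microglia library with the most fibroblast and pericyte marker RNA (334198). Itga8 and Itga7 were highest in IL-13 mouse 7, which had the lowest such sum of its group (53927). With IL-4, Itga11 had counts only in mouse 9, whose sum was 37934 against 63945 in mouse 8. The part of such cells in these counts was not tested. Itga3 kept 329 to 1128 counts with IL-13 and 168 to 776 with IL-4, and Itgb4 87 to 758 and 17 to 676. Itgae, the partner of Itgb7 that binds E-cadherin, had at most 109 counts and Itga2b at most 266 in any library.

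A further 107 genes of integrin signalling, matrix ligands, counter-receptors, selectin ligands and tetraspanins, from 7 lists, showed what surrounds the set. In macrophages with IL-4, 10 rose and 24 fell of 88 tested, where 6.77% of all genes rose and 7.2% fell. In macrophages with IL-13, 6 rose and 8 fell of 88 (4.19% of all genes changed). In microglia 6 rose and 1 fell with IL-4 of 100 tested (2.22% of all genes changed), and 1 rose and 1 fell with IL-13 (0.366%). With PBS, 40 were higher and 33 lower in microglia than in macrophages, of 98 tested, against 24.5% and 16.3% of all genes.

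Among the genes that switch integrins on, Fyb, which links T cell and myeloid receptors to integrins, fell in macrophages from a mean of 8266 normalized counts with PBS to 2059.5 with IL-4 (log2 fold change -1.95 ± 0.17, adjusted p = 9.6e-05). Cd47, a partner of Itgb3 integrins, rose from 8129.8 to 13077 (0.73 ± 0.17, adjusted p = 0.0162). Cyth1, which binds the tail of Itgb2, rose in microglia from 1268 to 3119 (1.33 ± 0.20, adjusted p = 0.0115), and its response to IL-4 differed between cell types (0.96 ± 0.22, adjusted p = 0.0479). At focal adhesions Vcl, the actin linker vinculin, fell with IL-4 in both cell types, by 1.28 on the log2 scale in microglia and by 1.27 in macrophages (adjusted p = 0.0363 and 0.0014), while the kinase Ilk rose in both, by 0.80 and 0.77 (adjusted p = 0.009 and 0.00592). Of the kinases downstream of integrins, Fyn rose with IL-4 in microglia (333 to 1269) and macrophages (151 to 823), and Ptk2b fell in macrophages from 4459 to 1762, with adjusted p of 0.0171 or less.

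Among the ligands, C3, the precursor of the CR3 ligand iC3b, rose in all 4 comparisons with PBS, in macrophages from 2464 to 8911 with IL-13 and 10199 with IL-4, and in microglia from 487 to 5398 and 3428. Spp1 (osteopontin), a ligand of Itgav integrins and the most abundant of the listed genes, fell in microglia with IL-13 from 451302 to 130471 (-1.78 ± 0.27, adjusted p = 0.0305). Of the counter-receptors, Cdh1 (E-cadherin), the ligand of Itgae with Itgb7, rose in macrophages with IL-13 from 342 to 8239.6 (4.62 ± 0.50, adjusted p = 0.00115), and in IL-4 macrophages stood at 11600.0. Pecam1 rose in macrophages from 334 to 5295 with IL-13 and 8379 with IL-4, while the junction molecules Jam2 and F11r, counter-receptors of leukocyte integrins, fell with IL-4 from 474 to 27.49 and from 4243 to 1429.7. Among the enzymes that build selectin ligands, which Selplg needs in order to bind, Gcnt1 fell in macrophages with IL-4 from 6336 to 1909.5 (-1.68 ± 0.13, adjusted p = 4.26e-05) and Tpst2 from 4442 to 2720.5 (-0.66 ± 0.13, adjusted p = 0.0075). The leukocyte tetraspanin Cd37 fell from 6385 to 2689 (-1.20 ± 0.13, adjusted p = 0.00034).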

How the data were processed

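The members and gene lists were chosen with earlier results of these data known. RNA was amplified by SMART-seq2, which keeps neither strand nor molecular identifiers, and the authors aligned reads with STAR 2.5.3a to GRCm38 and deposited expected counts per gene from RSEM 1.3.0. The annotation release is not given in the sources used here, and RSEM divides reads that fit several genes. Expected counts were rounded to whole numbers. Here edgeR 4.0.16 (R 4.3.3) was run with TMM scaling, its filter on low counts by group, quasi-likelihood tests and Benjamini-Hochberg adjustment over all genes tested, with a threshold of 0.05. Cytokine comparisons used the 9 libraries of a cell type, cell type comparisons the 6 libraries of a treatment, and differences of response all 18. Normalized counts are counts divided by DESeq2 1.42.0 size factors over all 18 libraries, and lengths are unions of exons in GENCODE M21 (99.6% of gene IDs matched). Full values were printed for members called with a cytokine, for the main leukocyte integrins and partners, and for the 10 largest cell type differences called with PBS; other members are given by ranges and counts, and non-members by at most the 3 lowest p per list in the comparison described. The mouse numbers of the labels pair both cell types of an animal; deviations of paired libraries correlated at 0.018 to 0.093. The edgeR fit for IL-4 against PBS in microglia was tested on simulated data. Levels per kilobase were also computed with the longest transcript as the length. The p-values cover the spread between 3 mice per group.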

Additional observations from a re-analysis of the deposited data

Results flagged for a closer look

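No member differed between the cell types in its response, but some of the surrounding genes named by their p did, by edgeR's interaction test over all 18 libraries. For IL-4, the log2 response in microglia minus that in macrophages was 0.96 for Cyth1 (adjusted p = 0.0479), 2.97 for the laminin chain Lamb2 (0.0101), 1.71 for the galectin Lgals3 (0.0124), 3.74 for the Itga8 ligand Npnt (0.0428), 3.40 for Jam2 (0.000684), -3.70 for Pecam1 (0.00185) and 4.52 for the sialyltransferase St3gal6 (0.00104). For IL-13 it was -3.12 for Pecam1 (0.0402). The endothelial markers differed between the cell types as given above, and their part in these values was not tested.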

How the results depend on the processing

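Counts of called members depended on the test. DESeq2 called more of all genes than edgeR in these comparisons, and of the members 5 of 29 for IL-4 (9.53% of all genes) and 2 of 30 for IL-13 (2.54%) against PBS in microglia, 1 of 29 for IL-4 against IL-13 in microglia (4.79%), 5 of 25 for IL-13 against PBS in macrophages (7.55%), and 3 and 2 of 30 for the difference between cell types in the response to IL-4 and IL-13 (4.68% and 1.1%). For IL-4 against PBS in macrophages DESeq2 called 9 of 27 (16% of all genes). For the cell types with PBS, IL-13 and IL-4 it called 21 of 31, 19 of 28 and 16 of 28 (40%, 31.7% and 29%). With all 18 libraries in 1 model there were 4 and 1 of 29 for IL-4 and IL-13 against PBS in microglia (5.74% and 1.04% of all genes), and 2 and 0 of 29 in macrophages (6.37% and 1.55%). For IL-13 against PBS in macrophages, 2 of 19 were called with at least 10 counts in every library (554 of all 11337 genes). With no filter on low counts there were 4 of 31 (760 of 23333), and with only the 6 libraries compared 2 of 22 (523 of 13020). Leaving out 1 mouse gave 3 to 7 for IL-4 and 0 to 3 for IL-13 against PBS in macrophages, 0 for IL-4 against PBS in microglia, and 15 to 18, 7 to 14 and 9 to 10 for the cell types with PBS, IL-13 and IL-4. Over all genes these fits called, in the same order, 1041 to 1614, 199 to 529, 75 to 269, 4354 to 5213, 1197 to 3606 and 1798 to 2548. Pairing the libraries with the mouse as a block gave 20 of 28, 16 of 27 and 11 of 24 for the cell types (5912 of 14715, 3538 of 13906 and 2790 of 13576 genes). For both differences in response it gave 0 of 29, where 188 (IL-4) and 3 (IL-13) of 16535 genes were called. No printed fold change of a member reversed; those of other genes were not recomputed. The cause of these shifts was not tested. With 3 mice per group and wide scatter in microglia, a missed threshold does not show equal levels.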
